A study of Pinus pinaster with 24 samples.

Results

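Cotyledons of sulfur-starved maritime pine (Pinus pinaster) seedlings were compared between plants that had been given sulfate and plants that had not. The comparison took the cotyledon libraries of the study, 6 of 24, with 3 libraries from seedlings watered with 0.5 mM K2SO4 and 3 from control seedlings watered with 1 mM KCl. All seedlings, from the Segura-Alcaraz provenance and 4 months old, had shared the same starvation. It began 1 month after germination and lasted 3 months, during which the weekly feed was 0.3 mM KNO3 and held no sulfur. Organs were frozen 24 h after the last watering. For a library 13 to 14 seedlings were pooled, and the pools are named biological replicates in the labels. The other 18 libraries came from needles, stem and roots under the same 2 treatments, and are used here where they show how cotyledons differed.

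Plants take up sulfur mainly as sulfate, which is activated to adenosine phosphosulfate, reduced through sulfite to sulfide and built into cysteine, the source of methionine and glutathione. In Arabidopsis, transcripts for sulfate transporters and for enzymes of sulfate reduction become abundant when sulfur is short and decline when sulfate returns. Cotyledons are the seed leaves of a pine seedling. They carry out its early photosynthesis, before needles take over. The files do not pair the feature identifiers with gene names, so no feature below has a known function, the sulfur pathway lists could not be matched, and the labelled organ could not be checked against marker genes.

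Levels are given as the authors' scaled CPM, read counts relative to an adjusted library size (normalized CPM below). Sulfate libraries 1, 2 and 3 held 102444498, 99010772 and 98199234 reads, and control libraries 1, 2 and 3 held 195881948, 99866938 and 97066476. A level of 3 reads, the least that counting error separates from 0, came to 0.0165 to 0.0334 normalized CPM. Spearman correlation across features was 0.974 to 0.987 between cotyledon libraries of a treatment and 0.967 to 0.982 between treatments. Against the other organs, cotyledon libraries correlated at 0.842 to 0.906 with needles, 0.628 to 0.691 with stem and 0.527 to 0.561 with roots. These are descriptions across features, which are not independent replicates. Libraries of a treatment differed by more than sampling noise, with a chi-square of 36.1 to 73.4 per feature. In a principal component analysis of the 6 libraries the component with 37.4% of the variance did not separate the treatments. The next, with 22.6%, did, with scores of -33.8, -11.8 and -16.8 in sulfate libraries and -5.62, 61.0 and 6.94 in control libraries.

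Few features fell with sulfate, and most of those fell far. Of 67271 features, 54944 reached a normalized CPM of 1 in at least 3 of the 6 libraries and were tested, and 12327 did not. With limma on log2(value + 0.5) and a Benjamini-Hochberg adjusted p under 0.05, 157 features fell in sulfate cotyledons (0.286% of those tested) and 9 rose (0.0164%). The median log2 change was -2.12 over the falls, with a range of -3.86 to -0.77, and 0.80 over the rises, with a range of 0.66 to 2.37. Over all tested features the median was -0.01. Without an adjustment, p was under 0.05 for 1897 features that were lower with sulfate and 2682 that were higher. At a looser adjusted p of 0.1 there were 188 falls and 19 rises. The count of falls depended on single libraries. It was 58 without sulfate 1, 100 without sulfate 2, 57 without control 1, 94 without control 2 and 81 without control 3, each with fewer libraries in the fit, and 176 without sulfate 3. With the replicate number as a block, 125 features fell, 111 of them among the 157, and 25 rose, 1 of them among the 9.

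**Figure D1:**
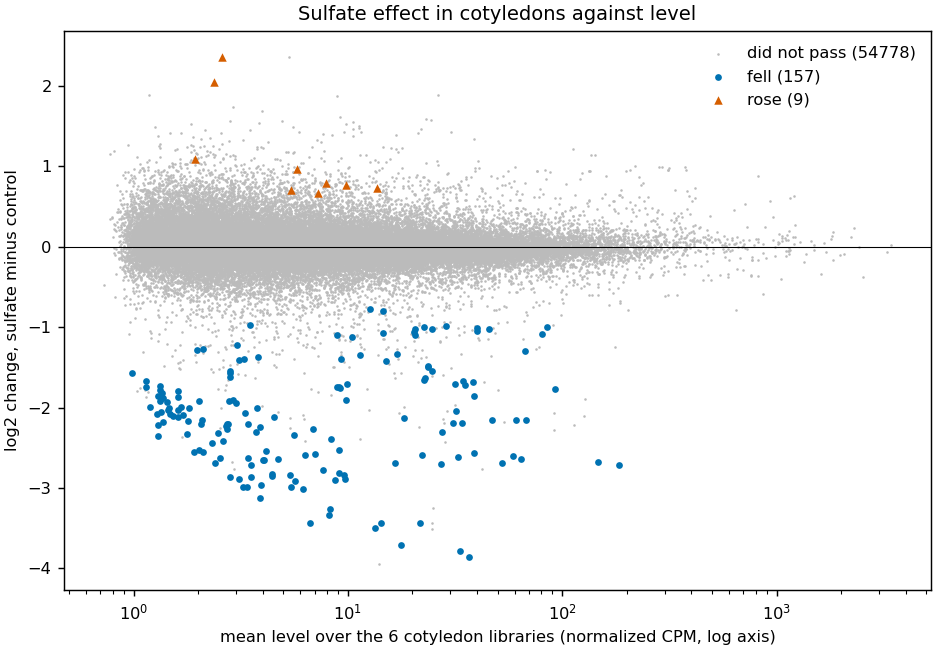
Each point is 1 of the 54944 tested features, with its mean level over the 6 cotyledon libraries on a log axis and its log2 change, sulfate minus control, on the vertical axis. The 157 falls (blue) reach down to -3.86, whereas the 9 rises (orange triangles) reach 2.37, and most of the rises lie within the range of features that did not pass (grey).

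The fall was large relative to the rest of the tested features. Of the 157 falls, 151 were at least 2-fold, 92 at least 4-fold and 11 at least 8-fold. Among all tested features, called or not, 122 were at least 4-fold lower in sulfate cotyledons and 3 at least 4-fold higher. The 5% quantile of the log2 change over tested features was -0.34 and the 95% quantile 0.43, and every fall lay below -0.34. The 3 sulfate values lay below the 3 control values for all 157 falls, a pattern that 6.89% of the tested features showed, and above them for all 9 rises, which 7.34% showed. The calls and this pattern come from the same 6 libraries, so neither supports the other. A call also needs a change that is large beside its SE. The place of the falls below -0.34 is therefore partly fixed by the choice.

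The features that fell kept part of their level. Their sulfate mean was 3.23 to 57.3% of their control mean, with a median of 14.8%. It was under 10% for 39 of them, under 25% for 111 and under 50% for 155. None was listed at 0 in any sulfate library, though 1 was at 0.0104 normalized CPM in sulfate 1, under the level of 3 reads there (0.0312). In control cotyledons their means ran from 1.73 to 318 normalized CPM with a median of 9.63, where all tested features had a median of 6.63. Falls were found at every level. With classes of the mean level over the 6 libraries, 31 of 7210 tested features under 2 normalized CPM fell, 72 of 26905 from 2 to 10, 52 of 19275 from 10 to 100, and 2 of 1554 at 100 or more.

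Summed over the 157 features, sulfate cotyledons held 945, 887 and 1069 normalized CPM, against 3946, 4288 and 3686 in control cotyledons. The sum was 967 ± 92.9 with sulfate and 3973 ± 302 in control (SD, n = 3 each), so sulfate cotyledons kept 24.3% of the control level. As a share of all reads the falls took 0.0826 to 0.101% of a sulfate library and 0.341 to 0.411% of a control library. The features were chosen on these libraries, so the sums are a description. Sulfate 3 had the highest of the 3 sulfate values for 115 of the 157 falls, sulfate 1 for 25 and sulfate 2 for 17. Over all tested features sulfate 3 was highest for 36.3%. Control 2 had the highest of the control values for 105 falls, against 37.5% of all tested features. The pools of a treatment therefore differed in the level of these features, with a median of 14.1, 13.1 and 18.8% of the control mean in sulfate 1, 2 and 3, and of 97.1, 109 and 92.8% in control 1, 2 and 3.

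The largest fall was in PpCO2_136229. Its level was 4.03, 4.47 and 4.39 normalized CPM in sulfate cotyledons, against 68.0, 78.6 and 61.2 in control cotyledons. The sulfate values lay close together and all far below the lowest control value, which was control 3. The log2 change was -3.86 ± 0.107 (SE), with a limma adjusted p of 0.000173, and sulfate cotyledons kept 6.21% of the control mean. The call held under all 16 alternative settings tried, those without each library included, with a log2 change of -4.01 to -3.49. PpCO2_102494 had 3.69, 3.46 and 2.59 normalized CPM in sulfate cotyledons, against 36.8, 47.1 and 36.3 in control cotyledons. Here the library labelled control 2 was the highest, and the groups did not overlap. The log2 change was -3.44 ± 0.154 (SE), with a limma adjusted p of 0.0005, and it too kept its call under all 16 alternatives.

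Of the 15 falls chosen for display, the largest of each of 12 runs and the 3 others most abundant in control, 7 kept their call under every alternative setting. The other 8 lost it in at least 1 fit without a library. Their adjusted p reached between 0.0696 and 0.306 over the alternatives, and their log2 change kept its sign. With the replicate block 6 of these 8 did not pass, at adjusted p of 0.0591 to 0.113. The most abundant of the 15 had 46.2, 44.1 and 54.9 normalized CPM in sulfate cotyledons and 330, 329 and 296 in control cotyledons, and kept its call throughout. The least abundant of the 15 in control had 0.332, 0.271 and 0.301 normalized CPM in sulfate cotyledons and 4.60, 7.13 and 2.61 in control cotyledons. Its control values spread more widely than its sulfate values, and its limma adjusted p was 0.0290. Without sulfate 1, sulfate 2, sulfate 3 or control 1 it did not pass.

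**Figure D2:**
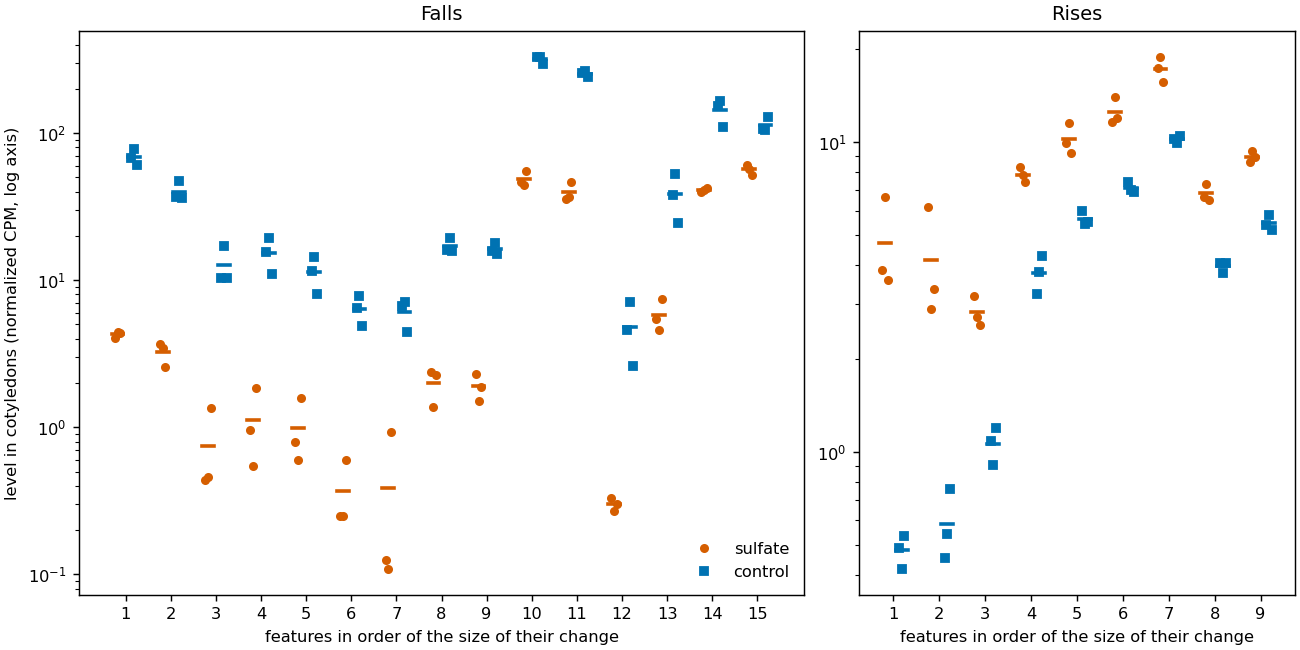
Points are the levels of single libraries in normalized CPM on a log axis, with sulfate (orange circles) left of control (blue squares) for each feature, and bars are means of 3 libraries. Among the 15 falls every sulfate value lies below every control value, down to 0.109, and among the 9 rises every sulfate value lies above every control value.

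Falls came in runs of neighbouring identifiers. A run joins features with numbers at most 2 apart whose levels correlated at over 0.8 (Pearson) across the 24 libraries. The 157 falls lay in 58 such runs, 25 of them as the only member of theirs, and 12 runs with at least 4 falls held 92 of the falls. Of the 104 tested members of these 12 runs, 12 did not pass. All 12 had log2 changes below 0, from -3.95 to -0.99, with adjusted p of 0.0517 to 0.532. Features of a run may share reads, so a run counts as fewer independent observations than its members.

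The run with the most falls had 21 members, all of which fell, with log2 changes of -3.01 to -2.18. Its summed level was 17.6, 22.8 and 28.3 normalized CPM in sulfate cotyledons, against 185, 234 and 191 in control cotyledons, so that 11.3% remained. Another run, of 12 members, all called, kept 13.1%, with 7.86 ± 2.69 normalized CPM in sulfate and 59.8 ± 4.31 in control cotyledons (SD, n = 3 each). The most abundant run was one of 10 members, all called, whose sum was 151, 155 and 194 normalized CPM in sulfate cotyledons and 1086, 1138 and 1006 in control cotyledons. All 3 sulfate sums lay far below the lowest control sum.

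The run of 8 that holds PpCO2_136229 had the lowest median log2 change of the 12 runs, -3.60. Its summed level was 16.9, 15.8 and 19.96 normalized CPM in sulfate cotyledons, against 247, 322 and 236 in control cotyledons, and 6.53% remained. Of its members 7 fell, and the one that did not pass had the lowest log2 change of the run, -3.95, with a limma adjusted p of 0.0870. A different run of 8, all called, had the highest median log2 change of the 12 runs, -1.03, and its sum was 138, 121 and 144 normalized CPM in sulfate and 274, 270 and 288 in control cotyledons.

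**Figure D3:**
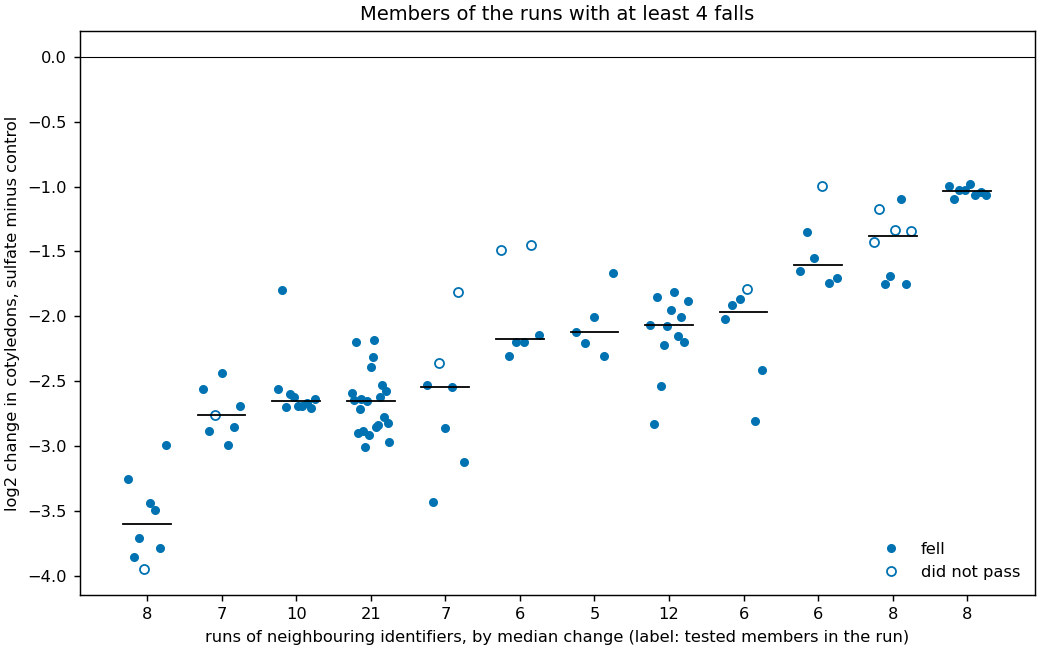
Each column is 1 of the 12 runs with at least 4 falls, in order of the median (black bar), and each point is a tested member with its log2 change in cotyledons, sulfate minus control. Filled points passed and the 12 open points did not, and all 104 points lie below 0.

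Rises were few and small. The 9 features summed to 75.8, 81.1 and 69.3 normalized CPM in sulfate cotyledons and to 38.4, 37.6 and 39.0 in control cotyledons. Of the 9, 4 lay in 1 run of 7 identifiers, whose sum was 69.1, 78.0 and 65.4 normalized CPM in sulfate and 42.5, 43.3 and 41.1 in control cotyledons. The sulfate libraries of that run all lay above the control libraries. The count of rises was 1 without sulfate 1, 2 without sulfate 2, 5 without sulfate 3, 0 without control 1 (2098 higher at an unadjusted limma p under 0.05), 2 without control 2 and 0 without control 3 (1620 higher at such a p). On reads recovered from the values, edgeR's quasi-likelihood test called 3 of the 9 and no other rise. The replicate block gave 25 rises, 1 of them among the 9. A fit of 24 libraries gave more again.

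The largest rise, PpCO2_141141, had 3.88, 6.67 and 3.59 normalized CPM in sulfate cotyledons, against 0.488, 0.418 and 0.534 in control cotyledons. The highest sulfate value, in sulfate 2, stood above the others, and the groups did not overlap. The log2 change was 2.37 ± 0.232 (SE), with a limma adjusted p of 0.0126. With a pseudocount of 2 it was 1.41 and still passed (0.0274). It was the rise that kept its call under the replicate block (adjusted p = 0.0333), and it lost the call without sulfate 1 (0.0667), control 1 (0.0760), control 2 (0.0536) or control 3 (0.0623).

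PpCO2_171977 had 6.19, 2.90 and 3.36 normalized CPM in sulfate cotyledons, against 0.455, 0.543 and 0.757 in control cotyledons. Sulfate 1 was highest and the groups did not overlap, with a log2 change of 2.04 ± 0.273 (SE) and a limma adjusted p of 0.0477. With a pseudocount of 2 the log2 change was 1.21 and did not pass (0.110), nor did the feature pass with no filter (0.0673). With the block the adjusted p was 0.0803, and it was 0.0704 to 0.193 over the 6 fits that left out a library. It was one of 3 rises that stood just inside the threshold, at 0.0477 each, while the nearest features outside stood at 0.0514. The level of this feature was 283 ± 17.5 normalized CPM in sulfate stem and 224 ± 14.1 in control stem, and 241 ± 8.62 in sulfate roots and 242 ± 14.7 in control roots (SD, n = 3 each). In cotyledons it was 4.15 ± 1.78 with sulfate and 0.585 ± 0.155 in control.

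Summed levels of features high in needles, stem or roots were higher in every sulfate cotyledon library than in any control one. There were 2033 features with a control mean in stem at least 32 times the mean of the 6 cotyledon libraries. Their summed cotyledon level was 774, 573 and 563 normalized CPM with sulfate and 510, 500 and 473 in control. For 3817 features chosen in the same way from roots it was 609, 467 and 460 with sulfate and 436, 422 and 410 in control, and for 782 from needles 107, 97.3 and 107 with sulfate and 97.0, 86.0 and 87.4 in control. All 3 sums had an exact two-sided permutation p of 0.1, the smallest that 3 libraries against 3 allow. Sulfate 1 was highest in the stem and root sums, as it was for PpCO2_171977. That feature and 1 other rise were in both the stem and the root set, and of the 157 falls none was in any set. The other rise was also highest in sulfate 1, with 3.19, 2.72 and 2.58 normalized CPM in sulfate 1, 2 and 3. The sum of all 9 rises, most of them in no set, was highest in sulfate 2. The part of these sets in the rises was not tested.

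Most of the falls in cotyledons were also falls in other organs. Of the 157, needles tested all and called 151 as falls (96.2% of 157, and 53.7% of the 281 needle falls), where 0.478% of all features tested in needles fell. Stem tested 150 and called 142 (90.4%, and 46.3% of the 307 stem falls), with a background of 0.525%. Roots tested 147 and called 131 (83.4%, and 15.7% of the 835 root falls), with a background of 1.38%. In all 4 organs 120 fell, 28 fell in cotyledons and 2 other organs, 8 in 1 other organ, and 1 in cotyledons alone. Library numbers of one treatment deviated together across organs, as described in the closing section, so the organs are not fully separate tests.

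These falls differed in depth between organs. The median log2 change was -2.12 over the 157 in cotyledons, against -2.55 over the same 157 in needles, -2.29 over the 150 tested in stem and -1.16 over the 147 tested in roots. Their summed level kept 24.3% of control in cotyledons, and 17.7% in needles, 20.1% in stem and 38.2% in roots. In control seedlings the highest mean was in cotyledons for 54 of the 157, in needles for 70, in stem for 29 and in roots for 4. With sulfate it was in cotyledons for 48, in needles for 15, in stem for 3 and in roots for 91. Of the 9 rises, 1 also passed in stem (limma adjusted p = 0.0450) and none in needles or roots, where 0.132% of all features tested rose in stem, 0.0357% in needles and 0.487% in roots.

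**Figure D4:**
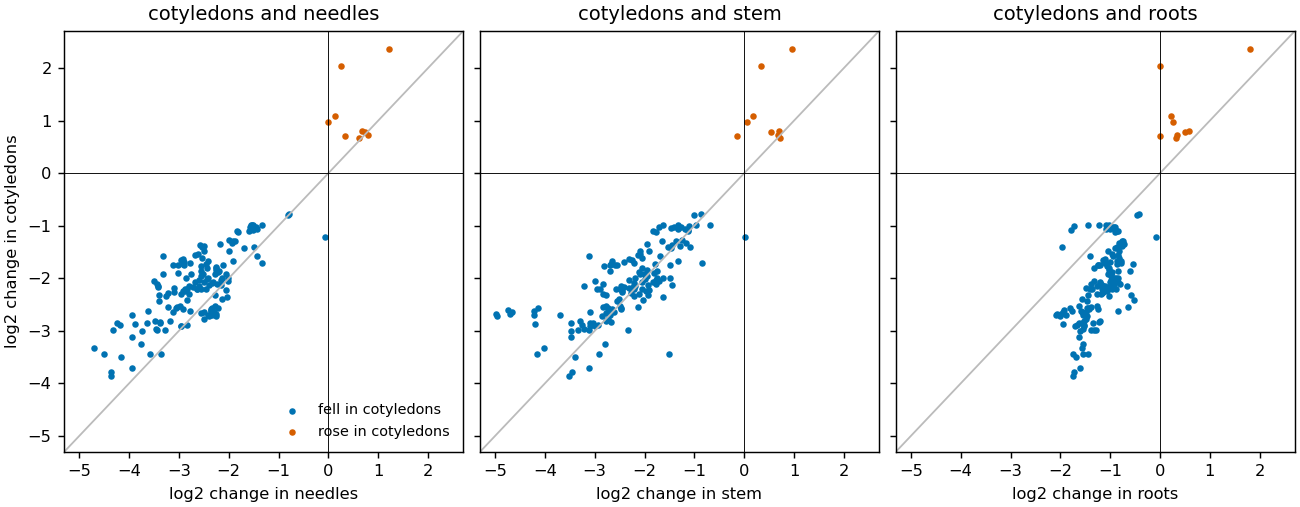
Each point is 1 of the 166 features called in cotyledons, where it was also tested in the other organ, with its log2 change in cotyledons on the vertical axis and that in needles, stem or roots on the horizontal axis (sulfate minus control), and the grey line marks equal changes. Most falls lie above the line for needles and below it for roots, and in the fit of 24 libraries 149 of the 157 had the lower value in cotyledons.

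The difference of the sulfate effect between organs was tested itself, in a limma fit of 24 libraries over the same 54944 features. Cotyledons minus roots gave 30 features with a lower effect in cotyledons (0.0546%) and 9 with a higher one (0.0164%), and 25 of the 157 falls were among the lower. The other contrasts gave fewer. Cotyledons minus needles gave 1 lower (0.00182%) and 8 higher (0.0146%), with 1 fall among the lower and 3 among the higher. Cotyledons minus stem gave 3 lower (0.00546%) and 13 higher (0.0237%), with 2 falls among the lower and 8 among the higher. Against the mean of the other 3 organs 1 feature was lower (0.00182%), a fall, and 7 were higher (0.0127%), 2 of them rises. The median difference over the 157 falls was -1.03 against roots, 0.51 against needles and 0.12 against stem. These features were called in cotyledons, so a lower effect there is partly fixed by the choice. With the replicate block the contrast with roots called 21 features, 18 of them lower. The reported fit had no term for pools shared between organs. With the seedling pool as a block across organs, chosen after seeing the data, roots gave 97 features, 38 of them shared with the reported fit. Of the 157 falls, 53 were then lower in cotyledons than in roots. Stem gave 23 (15 shared), needles 9 (6 shared) and the mean 15 (7 shared).

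PpCO2_136229 fell more in cotyledons than in roots. Its level was 4.30 ± 0.234 normalized CPM with sulfate and 69.3 ± 8.79 in control cotyledons, and 8.51 ± 2.01 with sulfate and 29.5 ± 4.38 in control roots (SD, n = 3 each). The difference of the log2 changes was -2.11 ± 0.275 (SE), with a limma adjusted p of 0.00336. It had a larger fall in needles, with a log2 change of -4.36, and the difference from needles was 0.51 (adjusted p = 0.656). PpCO2_102494 had log2 changes of -3.44 in cotyledons and -3.35 in needles, with a difference of -0.09 ± 0.278 (SE), and of -1.50 in stem and -1.54 in roots. Its difference from stem was -1.93 ± 0.278 (adjusted p = 0.00708) and from roots -1.90 ± 0.278 (adjusted p = 0.00577), and both passed in all 12 alternatives.

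Only 57 of the 157 falls had a lower effect in cotyledons than in stem, passed or not, so a larger fall in stem was common. All 8 falls whose effect passed as higher in cotyledons than in stem belong to the run of 10. Its median log2 change was -2.65 in cotyledons, -2.35 in needles, -1.94 in roots and -4.66 in stem. Within it, PpCO2_106665 had 48.4 ± 5.72 normalized CPM with sulfate and 318 ± 19.5 in control cotyledons, against 2.27 ± 0.443 with sulfate and 86.9 ± 20.4 in control stem (SD, n = 3 each). The log2 change was -2.71 in cotyledons and -4.96 in stem, with a difference of 2.25 ± 0.198 (SE) and a limma adjusted p of 2.38e-05. The difference passed in all 12 alternatives.

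PpCO2_76054 was the fall that passed in cotyledons alone. Its level was 1.34, 1.69 and 1.88 normalized CPM in sulfate cotyledons, against 4.43, 4.58 and 4.35 in control cotyledons, with no overlap. The log2 change was -1.22 ± 0.133 (SE), with a limma adjusted p of 0.0186. In needles it had 15.6 ± 0.775 normalized CPM with sulfate and 16.4 ± 2.60 in control, in stem 40.3 ± 2.65 with sulfate and 40.0 ± 2.03 in control, and in roots 24.4 ± 1.30 with sulfate and 25.8 ± 1.02 in control (SD, n = 3 each). The log2 change there was -0.06 in needles, 0.01 in stem and -0.08 in roots, and the difference of cotyledons from the mean of the other 3 organs was -1.18 ± 0.111 (adjusted p = 8.2e-05). The call within cotyledons was less stable. It held without sulfate 3 (adjusted p = 0.0315), and not without sulfate 1 (0.0654), sulfate 2 (0.0922), control 1 (0.123), control 2 (0.0838) or control 3 (0.110), nor with the replicate block (0.0537). The difference from the mean of the other organs passed in all 12 alternatives. That from needles was -1.16, and -0.77 (adjusted p = 0.0519) with a pseudocount of 2.

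PpCO2_171977 was the rise whose change passed the test of difference from each other organ at the reported settings. Its log2 change was 2.04 in cotyledons, against 0.25 in needles, 0.34 in stem and -0.01 in roots. The differences were 1.80 (adjusted p = 0.00733) from needles, 1.71 (0.00422) from stem and 2.05 (0.00186) from roots in limma, each with an SE of 0.234. With the replicate block the difference from needles had an adjusted p of 0.0508. With a pseudocount of 2 the differences shrank to 0.98 from needles (adjusted p = 0.289) and 0.88 from stem (0.193), which no longer passed, and to 1.22 from roots, which did. The adjacent identifier moved likewise without passing in cotyledons, with 15.03, 6.05 and 7.0 normalized CPM in sulfate and 1.35, 1.17 and 1.32 in control (limma adjusted p = 0.0619). The members of the run of 5 that holds both did not all rise. Their log2 changes in cotyledons ran from -0.19 to 2.36, with a median of 0.07. The summed level of that run was higher with sulfate. It was 27.2, 15.6 and 17.3 normalized CPM in sulfate and 9.29, 7.19 and 8.58 in control cotyledons. PpCO2_141141 gave no such difference, with log2 changes of 1.22 in needles, 0.97 in stem and 1.81 in roots, none of which passed. Its control level varied widely between pools, at 1.64 ± 2.32 normalized CPM in needles, 0.778 ± 1.01 in stem and 0.538 ± 0.739 in roots (SD, n = 3 each). Each difference from another organ had an SE of 0.932, so the lack of a call does not show a similar effect.

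**Figure D5:**
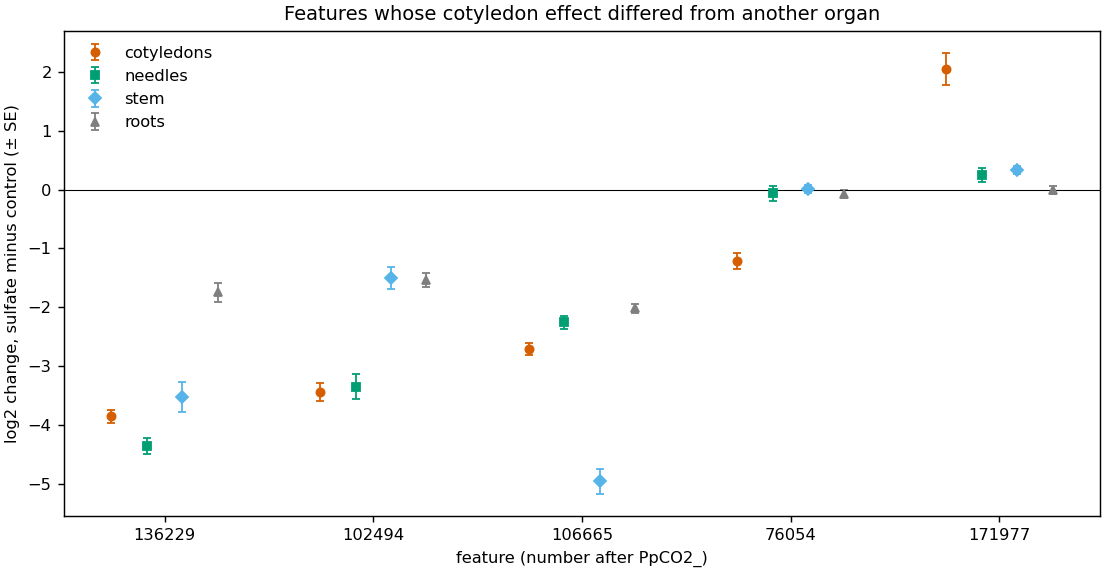
Points are log2 changes, sulfate minus control, with SE, from the separate fit of each organ, for 5 features that passed in a test of the difference between organs. PpCO2_76054 and PpCO2_171977 passed in cotyledons and in no other organ, while PpCO2_106665 lies lowest in stem.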

How the data were processed

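RNA selected with oligo(dT) was made into libraries for paired reads of 150 bp, per the labels' protocols. Tools named in the submitters' processing notes are bcl2fastq and BWA, with no version. How reads were counted, scaled and filtered, and on which reference, is not given in the sources used here. Values deposited by the authors are a signal, CPM relative to an adjusted library size (cotyledon factors 0.926 to 0.958), and not plain CPM as the plan had assumed. All cotyledon values were whole multiples of the library's step within 0.01 of a step, so reads were recovered. The level of 3 reads covers counting error only, whereas the SE and SD values reflect the spread between libraries. The kit is not described as stranded, and near-identical copies may share reads, so single features are uncertain.

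Tests used limma (lmFit, then eBayes with trend and robust) on log2(value + 0.5) of features that reached 1 in 3 or more of the 6 cotyledon libraries. P-values were adjusted by Benjamini-Hochberg, and 0.05 was the threshold. Fold changes on this scale understate those of low features. Other organs were fitted alike. Organ differences used 1 fit of 24 libraries. Nothing says that the pools came from separate plantings, so the p-values reflect only how these pools varied. Same-numbered sulfate and control libraries deviated together, with correlations of 0.198, 0.333 and 0.232, against -0.27 to 0.0815 for other numbers. Deviations from a group mean cancel within the group, so positive values for same numbers push those for other numbers down. The values are only a hint from the data that the numbers pair the samples. The reported fits were unpaired, and the replicate block was an alternative. Calls that the block changed are given beside the result.

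The rule for named features took the largest fall of 12 runs, the 3 others most abundant in control, each rise, those nearest the threshold and those with organ differences, 29 in all, with a control mean of at least 2 for falls. Identifiers without names are printed for 6. The features and lists were chosen with earlier results of these data known. Alternatives were pseudocounts, filters, rescalings, a fit of 24 libraries, array weights, the replicate block, edgeR on recovered reads and leaving out each library. The fits were also run on counts simulated from cotyledon means, drawn independently for each library. Such counts hold no shared deviation of same-numbered libraries, so that run cannot judge the organ differences in this respect. Tools were R 4.3.3, limma 3.58.1, edgeR 4.0.16, Python 3.11.15 and matplotlib 3.10.9.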

Additional observations from a re-analysis of the deposited data

Results flagged for a closer look

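Each of the following effects of sulfate in cotyledons differed from that in another organ in a limma test of the difference itself, given as the cotyledon log2 change minus that of the other organ.

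PpCO2_171977 differed by 1.80 from needles, 1.71 from stem, 2.05 from roots and 1.85 from the mean of the other 3 organs. PpCO2_76054 differed by -1.16 from needles, -1.23 from stem, -1.14 from roots and -1.18 from their mean. PpCO2_102494 differed by -1.93 from stem and -1.90 from roots. PpCO2_106665 differed by 2.25 from stem, and another member of its run by 2.31. PpCO2_136229 differed by -2.11 from roots, and another member of its run by -2.10. Among the remaining falls, 1 differed by 1.45 from needles, and 2 differed by -1.60 and -1.61 from roots. A further rise differed by 0.91 from the mean of the other 3 organs. Several of these did not hold under other settings. The 1.45 from needles passed in 5 of 12 alternatives. It failed with a pseudocount of 2, array weights and the seedling-pool block, and without sulfate 1 (adjusted p = 0.106), control 1 (0.124), control 2 (0.0542) or control 3 (0.0698). The 0.91 from the mean also passed in 5 of 12, with a range of 0.48 to 1.15. It failed with a pseudocount of 2, array weights and the replicate block (0.213), and without sulfate 1 (0.209), sulfate 2 (0.113), control 1 (0.117) or control 3 (0.0920). With the replicate block, 1.80 from needles (0.0508) and -1.60 and -1.61 from roots (0.0501 and 0.0634) did not pass. With a pseudocount of 2, the differences of PpCO2_171977 from needles (0.98) and stem (0.88) and of PpCO2_76054 from needles (-0.77) did not pass.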

How the results depend on the processing

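No named feature, named organ difference or summed level turned its direction under any alternative tried. Counts of features have no direction to turn, and many of them moved. The falls, 157 as reported, numbered 86 with a minimum of 5 and 316 in a fit of 24 libraries, and the rises, 9 as reported, 4 and 200 under the same settings, 25 with the replicate block and 3 with edgeR. Fits without 1 library gave 57 to 176 falls and 0 to 5 rises. Cotyledons minus needles (9 features) gave 14 with a pseudocount of 0.1, 1 with 2 and 3 with array weights. Cotyledons minus stem (16) gave 9 with a pseudocount of 2. Cotyledons minus roots (39) gave 21 with the replicate block. Against the mean of the other organs (8) there were 3 with a pseudocount of 2, 4 with array weights and 4 with the block. Taking the seedling pool as a block across organs, an alternative chosen after seeing the data, gave 97 features against roots and 15 against the mean. Without 1 library the contrasts gave 3 to 20 (needles), 13 to 81 (stem), 22 to 195 (roots) and 5 to 288 (mean). The cause was not tested, except that a minimum of 5 tests fewer features and each fit without a library has fewer samples. The summed levels moved by less than the spread between replicates. The replicate block changed no call of a displayed feature beyond those given in the text. The 3 libraries per treatment, and depth for features near the filter, limit which small changes could pass.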

Other observations

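Libraries with the same number and treatment deviated together across organs. The correlation of their deviations from the group means, over tested features, was 0.0753 to 0.493 between cotyledons and needles, 0.287 to 0.373 with stem and 0.128 to 0.206 with roots. With other numbers of the same treatment it was -0.365 to 0.156, -0.33 to 0.0109 and -0.195 to -0.0023. For needles the ranges overlapped. Deviations from a group mean cancel within the group, so the contrast between same and other numbers is partly built in.

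Some features spread widely between pools of a treatment. Within sulfate cotyledons 37 tested features had at least a 16-fold range, and within control cotyledons 34 did, and none of them was called. Of these, 8 in sulfate and 6 in control also had at least a 4-fold range in the same treatment of every organ. The same-numbered library was highest in all 4 organs for 8 of the 8 and for 5 of the 6. One such feature, chosen after its values were seen, had 0, 0 and 57.9 normalized CPM in sulfate 1, 2 and 3 and 116, 78.9 and 0 in control 1, 2 and 3 of cotyledons. In needles it had 0.105, 0 and 41.7 with sulfate and 39.0, 24.9 and 0.164 in control, in stem 0, 0.162 and 40.3 with sulfate and 24.4, 20.9 and 0 in control, and in roots 0, 0 and 12.9 with sulfate and 14.6, 11.7 and 0 in control.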
